A study of Mus musculus with 9 samples.

Results

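The 9 genes described here encode the parts of the T cell antigen receptor that do not vary between clones, the CD4 co-receptor, and the first kinases and adaptors of the signal. They are Cd3d, Cd3e, Cd3g, Cd247, Cd4, Lck, Zap70, Lat and Lcp2. The genes were chosen by symbol, and each was found once among the 54146 genes of the deposited table. All 9 passed the filter on low counts, as did 15521 genes in all. Messenger RNA was measured in CD4+CXCR5+PD1+ T follicular helper (Tfh) cells, the T cells that help B cells in germinal centres, sorted from Peyer's patches, lymphoid follicles in the wall of the mouse small intestine. The groups were 5 libraries from mice with a mutant and a wild-type allele of Tgfbr1, which encodes a receptor subunit for TGF-beta (WT/mut, replicates 6 to 10), and 4 libraries from wild-type littermate controls (WT, replicates 1, 3, 4 and 5). Strain, age, sex, the mutation itself and any treatment are not stated in the labels. Nor do these tie libraries to separate animals, so the spread behind each p-value is that between libraries and may be technical.

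The antigen receptor consists of an alpha and a beta chain that bind antigen and of CD3 chains that pass the signal on. CD3 delta, epsilon, gamma and zeta carry tyrosine motifs in their cytoplasmic tails. LCK, which can bind to CD4 or CD8, phosphorylates these tyrosines, and ZAP70 binds them and is activated. ZAP70 then phosphorylates the adaptors LAT and SLP-76 (the product of Lcp2), on which the downstream enzymes assemble. In Tfh cells the receptor reads the antigen that a germinal centre B cell presents, and its signals bear on how much help that B cell receives.

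Cd3d, Cd3g and Cd3e lie side by side on chromosome 9 of GRCm38, in a stretch from 44969572 (the end of Cd3g) to 45009627 (the start of Cd3e). Cd3d is read on the plus strand, and Cd3g and Cd3e on the minus strand, so that Cd3d and Cd3g start back to back, 1355 bases apart, while the RefSeq start of Cd3e, within the GENCODE gene given above, lies 27825 bases from that of Cd3d. The promoter windows of these genes are shown because Cd3d and Cd3g kept the most constant ratio of the 36 pairs among the 9 genes. Their neighbour Cd3e did not follow them, most of all in WT replicate 1. Those of Lck and Lat are shown because they formed the next most constant pair although they lie on different chromosomes. Each window is the RefSeq sequence (GRCm38.p6) from 250 bases before to 50 bases after a transcription start, on the strand of the gene, with capitals at GGAA or its reverse complement TTCC, the core of ETS factor sites.
Cd3d, chr9:44981536-44981835, plus strand: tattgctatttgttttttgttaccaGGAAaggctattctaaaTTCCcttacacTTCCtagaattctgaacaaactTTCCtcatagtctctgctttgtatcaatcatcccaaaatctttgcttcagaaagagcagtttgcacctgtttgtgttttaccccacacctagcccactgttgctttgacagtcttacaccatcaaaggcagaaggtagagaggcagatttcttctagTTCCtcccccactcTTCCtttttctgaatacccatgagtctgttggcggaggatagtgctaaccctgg
Cd3g, chr9:44980382-44980681, minus strand: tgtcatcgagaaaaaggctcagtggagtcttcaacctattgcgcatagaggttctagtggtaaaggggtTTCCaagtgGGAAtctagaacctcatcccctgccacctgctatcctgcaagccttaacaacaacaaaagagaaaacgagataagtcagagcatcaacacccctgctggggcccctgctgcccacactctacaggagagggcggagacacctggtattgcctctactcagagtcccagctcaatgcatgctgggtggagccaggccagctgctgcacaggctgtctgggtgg
Cd3e, chr9:45009562-45009861, minus strand: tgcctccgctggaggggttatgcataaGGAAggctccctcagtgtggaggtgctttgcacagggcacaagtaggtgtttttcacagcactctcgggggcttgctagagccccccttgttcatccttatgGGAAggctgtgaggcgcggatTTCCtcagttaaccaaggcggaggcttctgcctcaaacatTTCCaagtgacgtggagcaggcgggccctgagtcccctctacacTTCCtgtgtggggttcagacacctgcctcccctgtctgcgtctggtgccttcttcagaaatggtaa
Lck, upstream start, chr4:129573592-129573891, minus strand: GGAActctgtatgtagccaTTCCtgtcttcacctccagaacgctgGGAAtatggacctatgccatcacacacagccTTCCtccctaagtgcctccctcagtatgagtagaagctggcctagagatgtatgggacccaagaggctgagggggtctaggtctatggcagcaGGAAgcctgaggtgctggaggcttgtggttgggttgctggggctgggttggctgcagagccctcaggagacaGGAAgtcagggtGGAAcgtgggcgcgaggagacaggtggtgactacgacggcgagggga
Lck, downstream start, chr4:129558323-129558622, minus strand: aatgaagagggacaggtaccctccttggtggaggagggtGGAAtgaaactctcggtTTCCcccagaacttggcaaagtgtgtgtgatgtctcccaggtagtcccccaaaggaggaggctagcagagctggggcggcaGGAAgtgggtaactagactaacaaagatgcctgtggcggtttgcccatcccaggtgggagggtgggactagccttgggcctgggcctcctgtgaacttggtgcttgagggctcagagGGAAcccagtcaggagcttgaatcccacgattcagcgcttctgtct
Lat, chr7:126369519-126369818, minus strand: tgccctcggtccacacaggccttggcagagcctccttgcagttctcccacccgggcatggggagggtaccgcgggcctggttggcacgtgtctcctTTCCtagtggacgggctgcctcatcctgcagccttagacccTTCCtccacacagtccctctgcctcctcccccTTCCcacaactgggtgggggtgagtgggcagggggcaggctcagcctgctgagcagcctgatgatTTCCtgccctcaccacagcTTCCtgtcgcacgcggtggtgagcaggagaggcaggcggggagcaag
The windows held 6 GGAA matches for Cd3d, 2 for Cd3g and 5 for Cd3e. The upstream and downstream Lck windows held 7 and 4, and the Lat window held 5. Of 32851 windows of 300 bases over all genes, 96.0% held at least 1 match, with a median of 3. TGTGGT, the core of RUNX sites, searched on both strands, was found in 16.8% of all windows. Among the windows of the 9 genes, the upstream Lck window, the Lat window and a Zap70 window not shown here held it. Each had 1 match, with no overlap with a GGAA match. Counts per gene do not separate the Lck transcripts that begin at its 2 starts. RefSeq windows were found for 8 of the 9 genes, all but Cd4.

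Total counts per library lay between 29488783 and 43872686, and the 9 genes held 0.648% to 0.817% of them in WT/mut libraries and 0.771% to 0.962% in WT libraries. Each of the 9 genes had between 6150 and 134321 counts in every library. Levels are given as CPM, read counts scaled to a common library size with TMM factors. Tgfbr1 itself averaged 73.6 ± 16.5 CPM over the WT/mut libraries (SD, n = 5), against 77.0 ± 20.2 CPM over the WT libraries (SD, n = 4). Of the genes behind the sort, Cxcr5, the follicle homing receptor, lay between 1110.1 and 1268 CPM in WT/mut and between 1229.5 and 1380.3 CPM in WT libraries, and Pdcd1, which encodes PD1, between 1635 and 1987 CPM in WT/mut and between 1497 and 2197 CPM in WT libraries. The 8 Tfh markers summed to 5541 to 6025 CPM in WT/mut and to 6085 to 7163 CPM in WT libraries, with 2 positive and 6 negative fold changes. None of the 8 passed (smallest edgeR adjusted p 0.0721, Icos). Icos, a co-stimulatory receptor (749 to 922 CPM in WT/mut and 1038 to 1226 CPM in WT libraries), and Il21, a cytokine that acts on B cells (399 to 531 CPM in WT/mut and 532 to 772 CPM in WT libraries), had separate ranges (2 of the 8, against 4.46% of all tested genes). The part of this difference in the levels of the 9 genes was not tested. Cd8a, the alpha chain of the alternative co-receptor, was at 0 to 0.961 CPM in WT/mut and at 0.538 to 1.96 CPM in WT libraries.

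No gene of the 9 passed the threshold between WT/mut and WT cells (edgeR quasi-likelihood test, adjusted p under 0.05 over all 15521 genes), where 0.122% of all tested genes did. At an unadjusted p under 0.05 edgeR gave 1 of the 9 (Cd3d), against a background of 12.2% of all tested genes, and limma-voom also gave 1 (background 13.4%). DESeq2 called 0 of the 9 after adjustment (background 1.86%) and gave 2 at an unadjusted p under 0.05 (background 14.2% of the genes with a p). Of the fitted log2 fold changes, WT/mut over WT, 7 were negative and 2 positive, while 49.8% of all tested genes were negative and 50.2% positive. Their median was -0.15, against 0.0015 over all tested genes. Without regard to sign, the median size was 0.146 for the 9 genes and 0.238 over all tested genes. The CPM ranges of the groups overlapped for all 9 genes, whereas 4.46% of all tested genes had separate ranges (2.09% higher and 2.38% lower in WT/mut). The 95% intervals of the fold, WT/mut over WT, lay between 0.668 and 1.34 for all 9 genes, the lower bound being that of Lat and the upper that of Cd4.

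**Figure D1:**
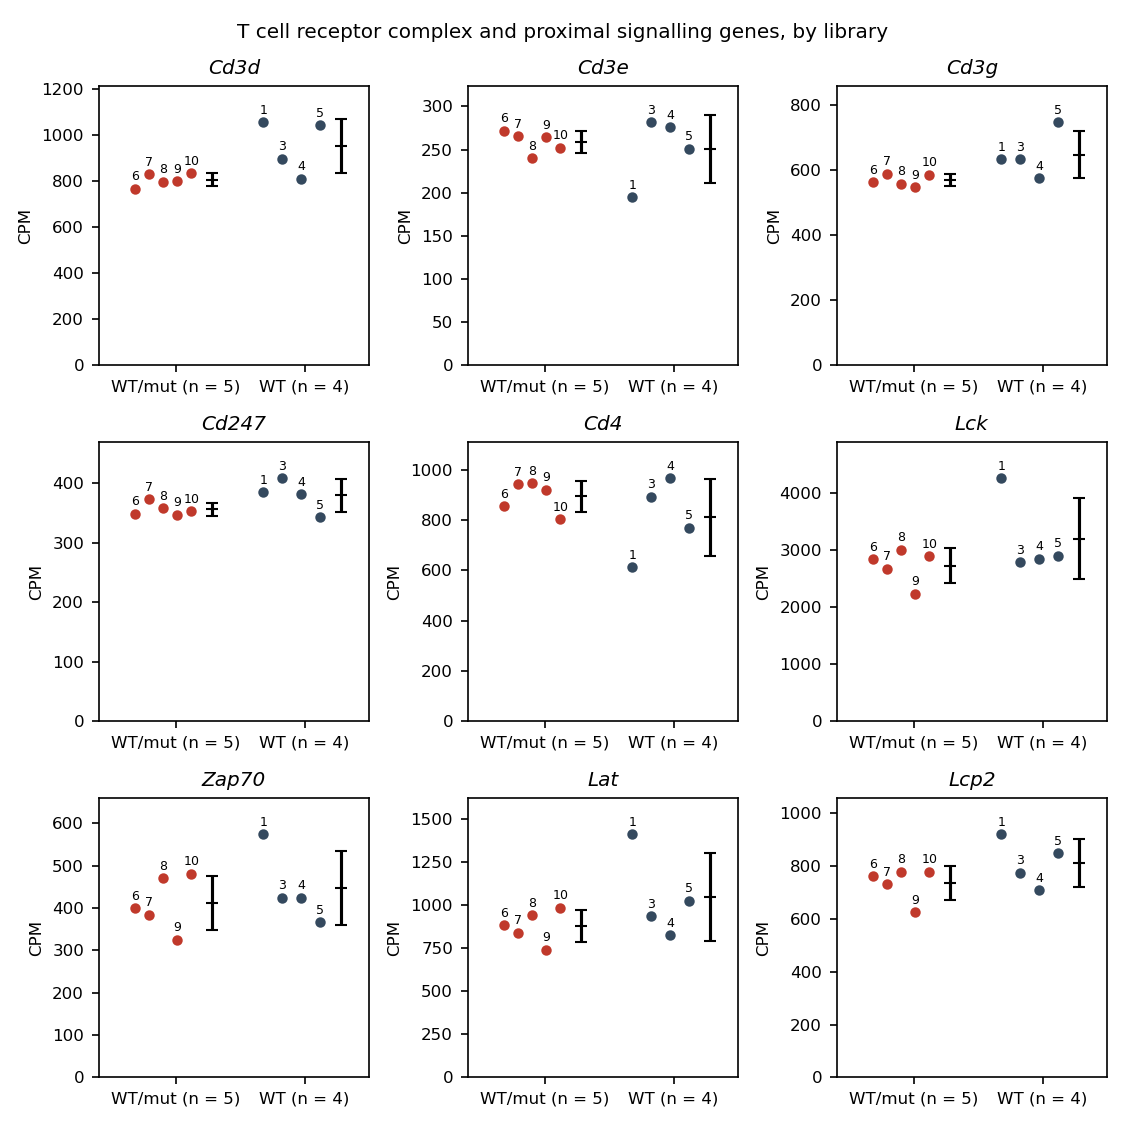
CPM of each of the 9 genes (vertical axis, from 0) in the 5 WT/mut libraries (red, left) and the 4 WT libraries (dark, right); each point is a library with its replicate number, and the bars beside them are the mean and SD of the group. WT replicate 1 is the lowest library for Cd3e and Cd4 and the highest for Cd3d, Lck, Zap70, Lat and Lcp2.

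Among the signalling chains of the receptor, Cd3d, which encodes CD3 delta (ENSMUSG00000032094.8, chromosome 9, 44981786 to 44987339), had the lowest p of the 9. Its levels were 768, 832, 798, 799.8 and 835 CPM in WT/mut replicates 6 to 10, and 1056, 898, 811 and 1043 CPM in WT replicates 1, 3, 4 and 5. WT replicate 4 fell inside the WT/mut range and the other 3 WT libraries above it. The means were 806 ± 27.6 CPM in WT/mut (SD, n = 5) and 952 ± 118 CPM in WT cells (SD, n = 4), a log2 fold change of -0.24 ± 0.10 (SE, edgeR adjusted p = 0.366), with a 95% interval from -0.45 to -0.03 that takes no account of the number of genes tested. With the level of B and plasma cell markers as a covariate, chosen after the data were seen, the Cd3d value was -0.0029 ± 0.13 (SE). That marker level was partly tied to the group, as described below.

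Cd3g, which encodes CD3 gamma, the partner of a second CD3 epsilon in the receptor (ENSMUSG00000002033.14, chromosome 9, 44969572 to 44980431), had the same form. It stood at 563, 589, 558, 547 and 586 CPM in WT/mut replicates 6 to 10, and at 634, 633, 574 and 746 CPM in WT replicates 1, 3, 4 and 5. Again WT replicate 4 lay within the WT/mut range and the other WT libraries lay above it, with replicate 5 the highest. The log2 fold change was -0.19 ± 0.09 (SE, edgeR adjusted p = 0.430), against -0.11 without WT replicate 5 and -0.05 ± 0.13 (SE) with the marker covariate.

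Cd3e, whose product pairs with both CD3 delta and CD3 gamma (ENSMUSG00000032093.7, chromosome 9, 44998740 to 45009627), did not share this order of libraries. It was measured at 272, 266, 240.3, 264 and 252 CPM in WT/mut replicates 6 to 10, and at 195, 281, 276 and 251 CPM in WT replicates 1, 3, 4 and 5. WT replicate 1 was the lowest of all libraries and WT replicate 3 the highest, so the WT/mut libraries lay inside the WT range. Its log2 fold change was 0.04 ± 0.11 (SE, edgeR adjusted p = 0.894), a fold between 0.870 and 1.22 by its 95% interval. Without WT replicate 1 the sign turned (-0.054), and without WT replicate 3 or 4 the value was 0.10.

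Cd247, which encodes the zeta chain (ENSMUSG00000005763.15, chromosome 1, 165788681 to 165877277), varied least. Its levels were 349, 373, 358, 347 and 353 CPM in WT/mut replicates 6 to 10, and 385, 408, 381 and 343 CPM in WT replicates 1, 3, 4 and 5. The highest library exceeded the lowest 1.19-fold, and the lowest and the highest were both WT libraries. The fit gave a log2 fold change of -0.09 ± 0.08 (SE, edgeR adjusted p = 0.641), and -0.06 without WT replicate 3. The SD of its log2 CPM over the 9 libraries, 0.08, was at percentile 1.01 of the tested genes with a mean log2 CPM of at least 4. Cd247 shares 3007 exonic bases with Pou2f1 on the opposite strand, and since the library kit does not mark the strand, reads of the shared bases cannot be assigned by strand; Pou2f1 averaged 29.6 CPM. The other exonic overlaps of the 9 genes were with genes averaging 6.02 CPM at most.

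The antigen-binding chains themselves were measured through their constant segments, which belong to the wider pathway lists and not to the 9 genes. Trac, the constant segment of the alpha chain, stood at 1018, 992, 1104, 979.9 and 1125 CPM in WT/mut replicates 6 to 10, and at 1525, 1167, 1056 and 1628 CPM in WT replicates 1, 3, 4 and 5. As for Cd3d and Cd3g, WT replicate 4 lay within the WT/mut range and the other 3 WT libraries above it. Its log2 fold change was -0.36 ± 0.13 (SE, edgeR adjusted p = 0.327). The beta constant segments Trbc1 (-0.13 ± 0.11, adjusted p = 0.624) and Trbc2 (-0.10 ± 0.08, adjusted p = 0.608) did not pass either, and how RSEM divided reads between these near-identical copies is uncertain. Trdc, the delta chain constant segment of the other T cell lineage, was at 6.12 to 13.8 CPM in WT/mut and at 1.51 to 9.81 CPM in WT libraries.

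Cd4, the co-receptor that binds MHC class II and defines the sort (ENSMUSG00000023274.14, chromosome 6, 124864692 to 124888221), was measured at 855, 943, 947, 921 and 804 CPM in WT/mut replicates 6 to 10. In WT replicates 1, 3, 4 and 5 it was at 614, 894, 966 and 770.4 CPM. WT libraries held both the lowest and the highest level, 1.57-fold apart. Between groups the log2 fold change was 0.14 ± 0.13 (SE, edgeR adjusted p = 0.656), and it was 0.03 without WT replicate 1 and 0.24 without WT replicate 4. Both Cd8 chains were low in all libraries: Cd8b1 lay between 2.49 and 4.63 CPM in WT/mut and between 3.07 and 4.58 CPM in WT libraries.

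Lck, the Src family kinase that starts the signal (ENSMUSG00000000409.14, chromosome 4, 129548344 to 129573641), had the highest level of the 9 genes and ranked 17 of the 15521 tested genes in mean CPM. Its levels were 2836, 2674, 3004, 2233 and 2888 CPM in WT/mut replicates 6 to 10, and 4253, 2787, 2849 and 2901 CPM in WT replicates 1, 3, 4 and 5. WT replicate 1 stood far above the other 3 WT libraries, which all lay within the WT/mut range. The means were 2727 ± 300.4 CPM in WT/mut (SD, n = 5) and 3198 ± 705 CPM in WT cells (SD, n = 4), a log2 fold change of -0.23 ± 0.14 (SE, edgeR adjusted p = 0.515). Without WT replicate 1 it was -0.06.

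Zap70, the kinase recruited to the phosphorylated chains (ENSMUSG00000026117.10, chromosome 1, 36761798 to 36782818), was measured at 399.7, 384, 469.7, 325 and 480.5 CPM in WT/mut replicates 6 to 10, and at 573, 424, 424 and 367 CPM in WT replicates 1, 3, 4 and 5. WT/mut replicate 9 was the lowest and WT replicate 1 the highest of all libraries. Its fitted log2 fold change was -0.12 ± 0.15 (SE, edgeR adjusted p = 0.767), and its sign turned without WT replicate 1 (0.030). It was -0.03 without WT/mut replicate 9, -0.18 without WT/mut replicate 10 and -0.20 without WT replicate 5.

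Lat, the membrane adaptor that ZAP70 phosphorylates (ENSMUSG00000030742.7, chromosome 7, 126363824 to 126369570), had the most negative fitted value of the 9. It stood at 887, 842, 945, 743 and 986 CPM in WT/mut replicates 6 to 10, and at 1412, 936, 825 and 1028 CPM in WT replicates 1, 3, 4 and 5. WT replicates 3 and 4 lay within the WT/mut range and replicates 1 and 5 above it. The log2 fold change was -0.25 ± 0.15 (SE, edgeR adjusted p = 0.497), and -0.07 without WT replicate 1.

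Lcp2, which encodes the cytoplasmic adaptor SLP-76 (ENSMUSG00000002699.13, chromosome 11, 34046920 to 34092295), was at 760.2, 730.4, 778, 625 and 777 CPM in WT/mut replicates 6 to 10, and at 919, 774, 708 and 848 CPM in WT replicates 1, 3, 4 and 5. As for Lat, WT replicates 3 and 4 lay within the WT/mut range. The log2 fold change was -0.15 ± 0.10 (SE, edgeR adjusted p = 0.563), and -0.08 without either WT replicate 1 or WT/mut replicate 9.

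**Figure D2:**
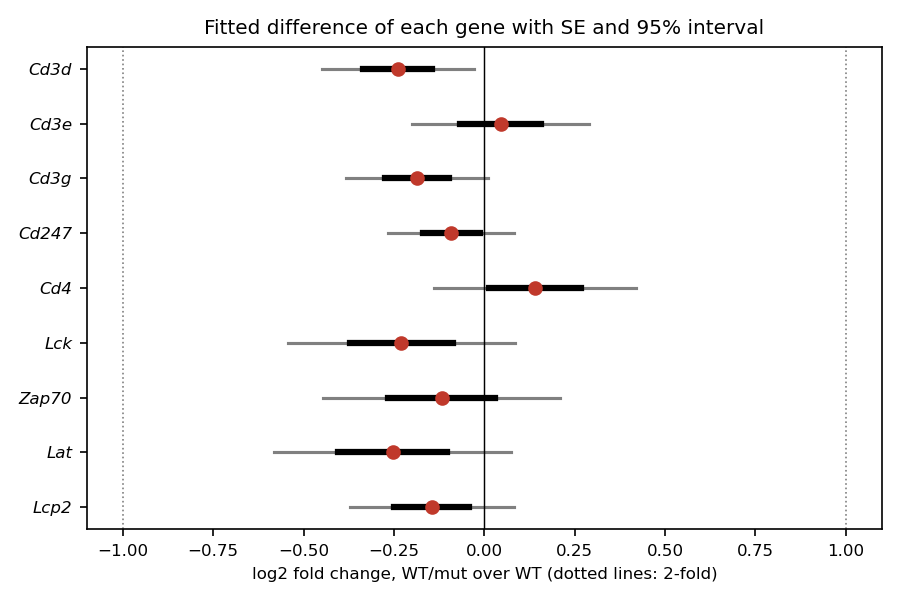
Fitted log2 fold change of each gene, WT/mut over WT (horizontal axis); points are estimates, thick bars 1 SE, thin bars the 95% interval, and dotted lines mark a fold of 2 in either direction. All 9 intervals lie inside the dotted lines, between -0.58 and 0.42.

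Per length, the 9 transcripts were not present in equal amounts. On the scale of CPM per kilobase of the longest APPRIS principal transcript (GENCODE M21), Lck stood at 1248 ± 137 in WT/mut (SD, n = 5) and 1463 ± 323 in WT cells (SD, n = 4), followed by Lat at 713 ± 76.5 in WT/mut and 850.4 ± 207 in WT cells. Next came Cd3g at 556 ± 17.7 in WT/mut and 632 ± 70.0 in WT cells, and Cd3d at 499 ± 17.0 in WT/mut and 589 ± 73.0 in WT cells. Cd4, between 259 and 305 in WT/mut and between 198 and 311 in WT libraries, Cd247, Lcp2 and Zap70 followed in that order. Cd3e had the lowest mean, 177 ± 8.59 in WT/mut and 172 ± 27.1 in WT cells. The means of Zap70 were 183 ± 28.6 in WT/mut and 199 ± 39.4 in WT cells. By library, however, Zap70 was above Cd3e in only 2 of 5 WT/mut and 1 of 4 WT libraries.

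The order of the 9 mean levels was the same in both groups. In WT/mut libraries the neighbours in this order from Lck to Cd247 had separate ranges, while Cd247, Lcp2, Zap70 and Cd3e each overlapped with the next. In WT libraries only Lck and Lat, and Cd3d and Cd4, had separate ranges among neighbours. Per kilobase of all merged exons of a gene instead, Lck remained highest and Cd3e lowest, Cd3d moved ahead of Lat and Cd3g (444 and 174 in WT/mut, 525 and 198 in WT cells, for Cd3d and Cd3g), Cd4 ahead of Cd3g, and Cd247 behind Lcp2 and Zap70, so the order within those pairs depends on the length assumed.

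Over the libraries, some pairs of the 9 genes kept more constant ratios than others. The SD of the log2 ratio of a pair over the 9 libraries, which is 0 when both genes move in step, was lowest for Cd3d and Cd3g (0.08) and for Lck and Lat (0.09), and was 0.11 for Cd3d and Lcp2, 0.12 for Lck and Zap70 and 0.12 for Cd3e and Cd4. It was highest for Cd4 and Lat (0.46) and for Cd4 and Lck (0.43). Over all 36 pairs it had a median of 0.22. Pairs without Cd3e or Cd4 reached 0.27 (Cd3g and Zap70), above the 0.18 of Cd3e and Cd247. For Cd3e, the median SD of the log2 ratio to the 7912 other tested genes with a mean log2 CPM of at least 4 was 0.30. Over the 9 libraries Cd3e and Lck (0.39), Cd3e and Lat (0.41) and Cd3e and Zap70 (0.37) were thus less constant than Cd3e was to the median gene. WT replicate 1 deviated from the gene mean in log2 CPM by -0.38 for Cd3e and -0.47 for Cd4. For Lck, Lat and Zap70 it deviated by 0.55, 0.59 and 0.44. The high SDs of pairs with Cd3e or Cd4 therefore lean on that library, and SDs without it were not computed. For none of the 36 pairs were the ranges of the ratio in the groups separate.

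**Figure D3:**
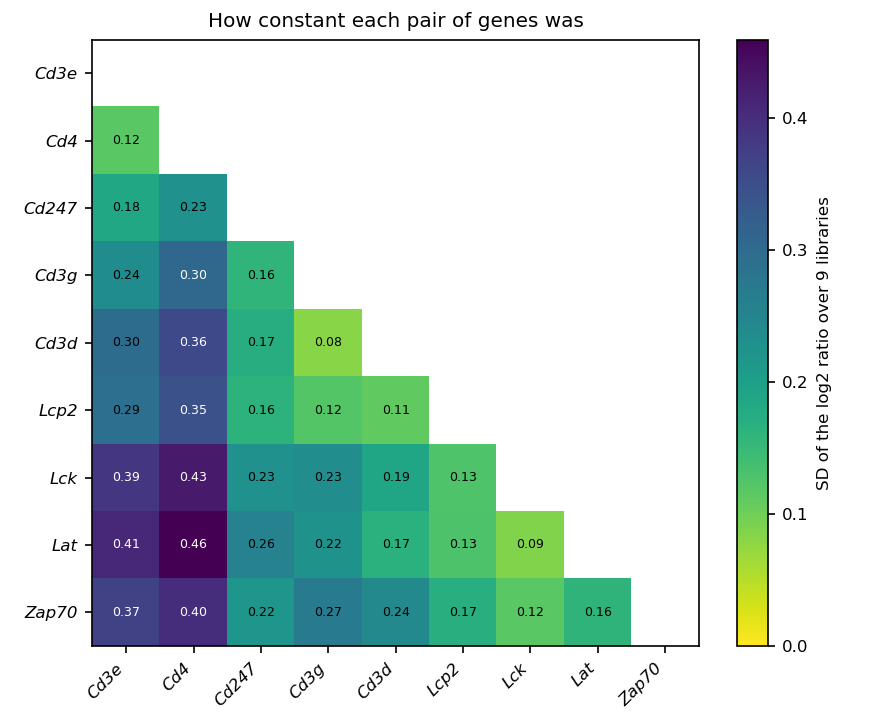
SD of the log2 ratio between each pair of the 9 genes over the 9 libraries (colour and number; lower is more constant). The pairs of Cd3e or Cd4 with any of the other 7 genes lie between 0.18 and 0.46, and the remaining 22 pairs between 0.08 and 0.27. The SDs include WT replicate 1, the lowest library for Cd3e and Cd4 and the highest for Cd3d, Lck, Zap70, Lat and Lcp2.

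The extremes came mostly from 2 libraries. WT replicate 1 was the highest of the 9 libraries for 5 genes (Cd3d, Lck, Zap70, Lat and Lcp2) and the lowest for 2 (Cd3e and Cd4). Its log2 CPM deviated from the gene mean over all libraries by 0.55 for Lck, 0.59 for Lat and 0.44 for Zap70, and by -0.38 for Cd3e and -0.47 for Cd4. WT/mut replicate 9 was the lowest library for 5 genes (Cd3g, Lck, Zap70, Lat and Lcp2), with deviations of -0.38 for Lck, -0.38 for Zap70 and -0.34 for Lat, but not for Cd3e (0.06) or Cd4 (0.12). WT replicate 1 had the fewest detected genes of the 9 libraries, 17904 (against up to 30143, in WT/mut replicate 7), and WT/mut replicate 9 the lowest total count. The part of these measures in the deviations was not tested.

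**Figure D4:**
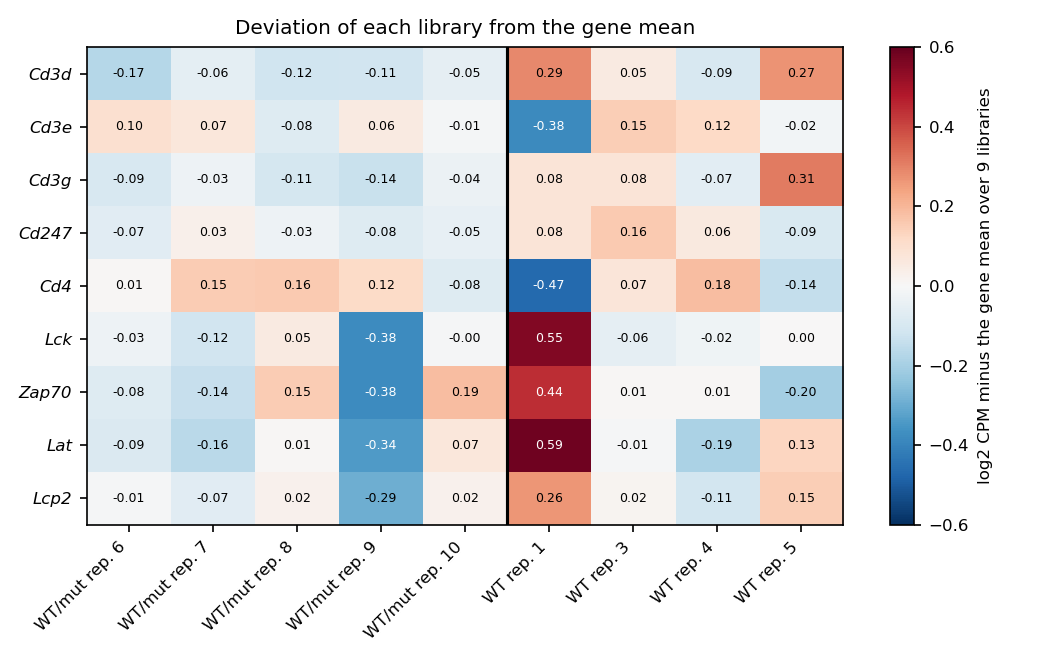
Deviation of log2 CPM from the gene mean over the 9 libraries (colour and number) for each gene (rows) and library (columns; WT/mut left of the black line, WT right). WT replicate 1 runs from -0.47 for Cd4 to 0.59 for Lat, and WT/mut replicate 9 from -0.38 for Lck and Zap70 to 0.12 for Cd4.

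The spread between libraries was larger in WT than in WT/mut for each of the 9 genes, with coefficients of variation from 2.97% (Cd247) to 15.6% (Zap70) in WT/mut and from 7.13% (Cd247) to 24.3% (Lat) in WT cells. This also held for 74.6% of all 7989 tested genes with a mean of at least 16 CPM, so it was not a property of these genes alone. Without WT replicate 1 it held for 7 of the 9, and the coefficient of variation of Lck in WT cells was then 2.00%.

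For each of the 9 genes, at least 3 genes outside the 9 kept a more constant ratio to it than any other of the 9 did. Closest to Cd3d were Ssu72 (SD of the log2 ratio 0.04), Hdac1 (0.06) and Mapk9 (0.06), and closest to Cd3g were Mcur1, Rbm39 and Rdh14 (0.06 each), all below the 0.08 of Cd3d and Cd3g, so constancy was not particular to that pair. Closest to Lcp2 were Klhdc2 (0.04), Rnf114 (0.05) and Phtf1 (0.05). Closest to Cd3e were Pnrc1 (0.05), Ap3b1 (0.06) and Arhgef2 (0.07), and closest to Cd4 were Maz (0.03), Ssh2 (0.06) and H2-Q6 (0.07). Closest to Lck were Ephx1 (0.03), Mob3a (0.06) and Ccm2 (0.06), to Zap70 Rnf187 (0.03), Puf60 (0.06) and RP23-21B1.2 (0.06), and to Lat Ppp1ca (0.04), Gngt2 (0.05) and Sugp1 (0.05). Closest to Cd247 was Grap2 (0.06), which encodes GADS, the adaptor that joins SLP-76 to LAT, followed by Iws1 (0.07) and Psmd8 (0.07). All of these were picked as the 3 smallest values out of 7912 genes, over 9 libraries that the genes share.

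The rest of the pathway was followed in 87 tested genes, in lists of receptor constant segments, CD8 chains, other proximal kinases and phosphatases, the LAT signalosome, inhibitors and other regulators, and the distal calcium, NF-kB and MAP kinase branches. With edgeR 0 of the 87 passed the threshold (background 0.122%). At an unadjusted p under 0.05, 10 were higher and 8 lower, where the background was 5.69% higher and 6.46% lower. DESeq2 called 5 (background 1.86%), among them Cblb, which was higher, and Sit1 and Ubash3b, which were lower. Over the 87 genes the median log2 fold change was 0.01, with 45 positive and 42 negative values, and 7 had ranges that did not overlap, as did 4.46% of all tested genes.

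**Figure D5:**
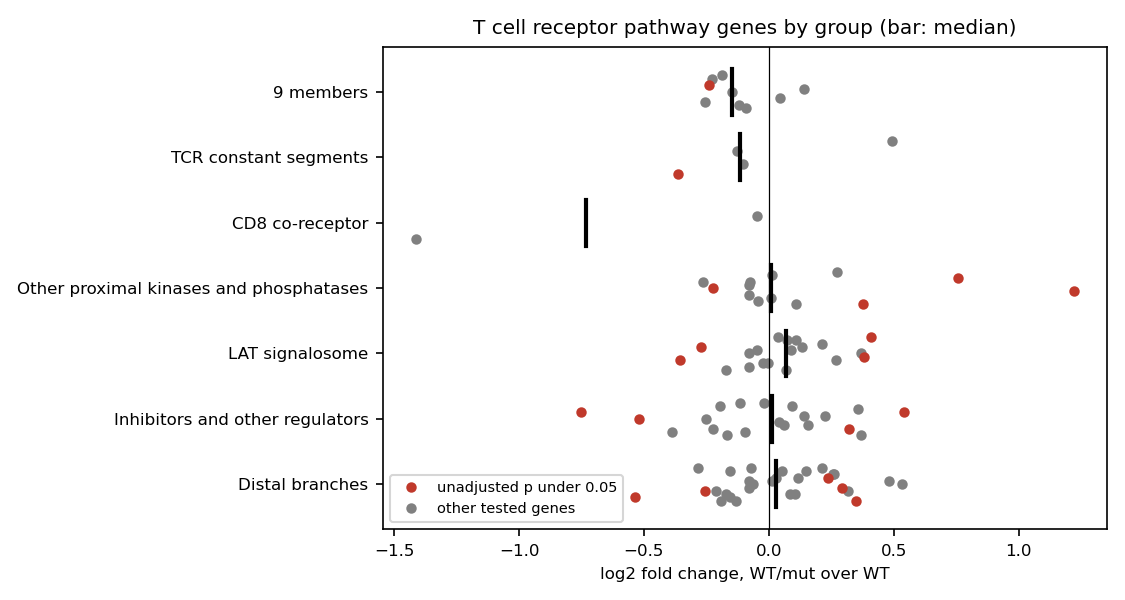
Log2 fold change, WT/mut over WT, of each tested gene of the pathway (points) by list (rows; vertical position within a row has no meaning), with the median of the list as a black bar; red points had an unadjusted p under 0.05. The medians of the lists with over 10 genes lie between 0.01 and 0.07, and that of the 9 members at -0.15.

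The lowest 2 p values of the pathway belonged to genes of inhibitors, Cblb and Sit1. Cblb, an E3 ubiquitin ligase that restrains receptor signals, was at 214.5, 242, 253, 209 and 175 CPM in WT/mut replicates 6 to 10, and at 128, 161, 160 and 153 CPM in WT replicates 1, 3, 4 and 5. All WT/mut libraries lay above all WT libraries, with a log2 fold change of 0.54 ± 0.12 (SE, edgeR adjusted p = 0.149). Sit1, a transmembrane adaptor that recruits the phosphatase SHP2, was at 66.5, 62.2, 71.3, 48.9 and 70.5 CPM in WT/mut replicates 6 to 10, and at 155, 92.7, 91.7 and 91.3 CPM in WT replicates 1, 3, 4 and 5. All WT/mut libraries lay below all WT libraries (-0.75 ± 0.18, edgeR adjusted p = 0.174). Ubash3b, which encodes the phosphatase STS-1, had ranges of 35.3 to 43.1 CPM in WT/mut and 44.7 to 72.2 CPM in WT cells (-0.52 ± 0.14, edgeR adjusted p = 0.229). In the list of 20 inhibitors and other regulators that holds these genes, 10 values were positive and 10 negative, so this mixed list did not share a direction.

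Downstream of LAT, the 3 genes of lowest p were Skap1 (-0.35 ± 0.13), Sh2d2a (-0.27 ± 0.12) and Sos1 (0.41 ± 0.18), which encode an adaptor of integrin activation, the adaptor TSAd and a guanine nucleotide exchange factor. Their edgeR adjusted p values lay between 0.339 and 0.407, and of 19 genes of this list 11 were positive and 8 negative. Among the other kinases and phosphatases the lowest p belonged to the phosphatase genes Ptprj (0.76 ± 0.28) and Ptpn7 (-0.22 ± 0.09) and to Csk (0.38 ± 0.15), the kinase that holds LCK inactive, with edgeR adjusted p between 0.340 and 0.368. Of the distal branches, Map2k1, a kinase of the MAP kinase cascade, lay between 149 and 174 CPM in WT/mut and between 119.9 and 141 CPM in WT libraries (0.29 ± 0.09, edgeR adjusted p = 0.276). All its WT/mut libraries were above all its WT libraries, and of 29 genes of this list 16 were positive and 13 negative.

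Markers of other cell types were summed in each library. In bulk RNA, fewer T cells and less of a transcript per cell cannot be told apart. The summed level of 10 B cell markers was 260.2 to 596 CPM in WT/mut and 126 to 324 CPM in WT libraries, and 10 of 10 had a positive fold change, with overlapping sums. Of 7 tested plasma cell markers 5 were positive, and the sum of all 8 listed was 614 to 1581 CPM in WT/mut and 313 to 561 CPM in WT libraries. Of 5 tested red cell markers 5 had separate ranges, against 4.46% of all tested genes. The sum of all 6 listed red cell markers was 401 to 869.6 CPM in WT/mut and 98.5 to 282 CPM in WT libraries. No marker of these 3 lists passed (smallest edgeR adjusted p 0.340 for B cell, 0.0904 for plasma cell and 0.0951 for red cell markers). The summed level of the 9 genes was 6805 to 8097 CPM in WT/mut and 7815 to 10041 CPM in WT libraries. The mean level of the B and plasma cell markers was then used as a covariate, a setting chosen after the data were seen. Since the plasma cell sums were separate between the groups, this fit can part group and marker level only in part. The log2 fold changes (with SE) were 0.12 ± 0.19 for Lck, 0.24 ± 0.16 for Lat, 0.21 ± 0.20 for Zap70 and 0.12 ± 0.13 for Lcp2. Cd4 was at -0.20 ± 0.15 and Cd3e at -0.18 ± 0.16. Each of these 6 values was of the opposite sign to that without the covariate. In the same fit Cd3d was at -0.0029, Cd3g at -0.05 and Cd247 at -0.07, and 0 of the 9 passed (edgeR, 0 at an unadjusted p under 0.05).

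Markers of other lymphocytes that use these genes were scarce. Of 10 natural killer and innate lymphoid markers, Ncr1 and Klrk1 had 0 counts in all WT libraries, while 22 of 23 Ncr1 counts in WT/mut came from replicate 9 and 157 of 170 Klrk1 counts from replicate 7. The sum of the list was 77.4 to 103.5 CPM in WT/mut and 94.7 to 119 CPM in WT libraries, most of it from Il7r and Kit. Kit, a receptor tyrosine kinase, was lower in WT/mut (4.72 to 14.4 CPM) than in WT libraries (25.6 to 49.5 CPM), with a log2 fold change of -2.09 ± 0.31 (SE, edgeR adjusted p = 0.0334). Of the 7 tested genes of this list, 4 had a positive and 3 a negative fold change. Only Kit passed, where 0.122% of all tested genes did, so the list did not share a direction. The 5 CD8 T cell markers summed to 11.2 to 43.8 CPM in WT/mut and to 15.1 to 58.8 CPM in WT libraries. The 3 gamma delta T cell markers in the table summed to 10.5 to 21.9 CPM in WT/mut and to 9.28 to 12.2 CPM in WT libraries. The 10 myeloid and dendritic markers summed to 49.6 to 306 CPM in WT/mut and to 46.0 to 175 CPM in WT libraries, and the 8 epithelial markers to 32.0 to 250.2 CPM in WT/mut and to 45.7 to 431 CPM in WT libraries. The part of these cells in the levels of the 9 genes was not tested.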

How the data were processed

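The authors deposited 1 table of RSEM expected counts for 9 libraries. The tools named by the submitters' processing notes are cutadapt 2.10, STAR 2.5.3, RSEM 1.3.0 and DESeq2, and the build is mm10. The annotation release was not given in these sources. Per the labels' protocols, each library was made from 300 pg of RNA with a SMART-Seq kit that does not mark the strand. Expected counts were rounded to whole numbers; 11.1% to 18.3% of the values per library were fractional. Positions and lengths are those of GENCODE M21 on GRCm38.

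Groups were compared with edgeR 4.0.16 in R 4.3.3 (quasi-likelihood F test, robust fit, TMM factors, no covariate) after filterByExpr with a minimum count of 10 and a minimum total of 15, with Benjamini-Hochberg adjustment over these genes and a threshold of 0.05. Each SE was derived from the log2 fold change and its F value. DESeq2 1.42.0 and limma-voom (limma 3.58.1) were alternatives. Log2 ratios use a prior count of 2. Intervals cover the spread between libraries as edgeR fits it. The script was tested on simulated data. The members, the gene lists and the naming rule (the 9 genes, the 3 genes of lowest p per pathway list, the 3 of most constant ratio to 6 of the members, receptor constant segments and CD8 chains, and markers near 0) were chosen with earlier results of these data known. Cxcr5, Pdcd1, Icos, Il21, Il7r, Kit and the genes of most constant ratio to Cd3d, Cd3g and Lcp2 fall outside that rule and were named after their values were seen. Some genes that the rule names are not reported here.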

Additional observations from a re-analysis of the deposited data

Results flagged for a closer look

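Within each group, the highest and the lowest library were compared with the others by Dixon's ratio, the gap to the nearest library over the range of the group, for the 9 genes and for their summed share of counts. Of 20 sets of values checked, 2 held a library that stood apart, and chance gives about 1 in 20. Lck in WT replicate 1, at 4253 CPM, stood apart from the next WT library, at 2901 CPM (ratio 0.922, critical value 0.829 for 4 libraries). The share of counts held by the 9 genes in WT/mut replicate 9, at 0.648%, stood apart from the next WT/mut library, at 0.789% (ratio 0.830, critical value 0.710 for 5 libraries). This share is of counts not scaled with TMM factors. In summed CPM, WT/mut replicate 9 was at 6805 and the next WT/mut library, replicate 7, at 7633, and these sums were not checked by the ratio.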

How the results depend on the processing

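The values of the 9 genes were refitted under 19 alternatives. The adjusted p of each of the 9 genes stayed above 0.05 in all of them, the smallest being 0.180 (Cd3d, without one library). Of 171 values, 162 kept their sign and 9 turned. Without WT replicate 1 Cd3e turned to -0.054 and Zap70 to 0.030; over all fits that leave out 1 library, Cd3e ran from -0.054 to 0.10 and Zap70 from -0.20 to 0.030. With WT/mut replicates 7 and 9 both left out (chosen after the data were seen), Zap70 turned to 0.0096. With the B and plasma cell marker level as a covariate, also chosen later, Cd3e was at -0.18, Cd4 at -0.20, Lck at 0.12, Zap70 at 0.21, Lat at 0.24 and Lcp2 at 0.12. Under that covariate Cd3d was at -0.0029 and Cd3g at -0.05; without 1 library, Cd3d ran from -0.30 to -0.18, Cd3g from -0.23 to -0.11 and Cd247 from -0.14 to -0.06. The marker level was partly tied to the group, and the cause of the turns was not tested. Over all tested genes edgeR called 19, against 288 with DESeq2, 1 with detected genes as a covariate, 1 without WT/mut replicates 7 and 9, 0 with the marker covariate (877 at an unadjusted p under 0.05), and 2 to 23 without 1 library. Of the other pathway genes, 0 were called by edgeR and 5 by DESeq2. No paired analysis was possible because the groups share no replicate number. Each of the 9 genes had at least 6150 counts per library, and what depth adds to their spread was not tested.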
